A study of Mus musculus with 8 samples.

Results

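The T cell receptor segments and signalling genes measured in this mouse pancreas series were Trav9d-3, Trbv1, Cd3d, Cd3e, Cd3g, Cd247, Cd6, Cd28, Icos and Zap70. They were taken by symbol: every probe set (a group of short probes on the array read as 1 value) whose platform annotation gave 1 of these 10 symbols was used. This gave 18 probe sets of the 12422 tested, and 10 genes of the 8251 with a single symbol. RNA came from whole pancreas of mice aged 3 weeks, on 8 Affymetrix arrays with 2 arrays in each of 4 groups. BDC2.5/NOD.scid mice carried both the BDC2.5 transgene, a rearranged T cell receptor of CD4 T cells reactive to islets, and the scid mutation. NOD.scid mice carried the scid mutation alone, which stops the joining of antigen receptor gene segments and so leaves no mature T or B lymphocytes. BDC2.5/NOD mice carried the transgene alone, and NOD mice, the inbred strain shared by all groups that develops autoimmune diabetes, carried neither. By the labels, each RNA was a pool of 2 isolations from 6 animals apiece, so no value belongs to a single animal. The promoter of the transgene and the pool behind each array of a pair are not stated in the labels used here. A p-value then reflects no more than the scatter among these 8 arrays, which may be technical.

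A T cell receptor is a pair of chains, each made by joining variable, sometimes diversity, and joining gene segments to a constant region. The chains have almost no cytoplasmic tail and signal through CD3 delta, epsilon and gamma and the CD247 (zeta) chain. When the receptor binds its peptide on an MHC molecule, tyrosines on these chains are phosphorylated and recruit the kinase ZAP-70, which passes the signal on, and CD28 and ICOS add costimulation. In the pancreas of NOD mice, T cells that enter the islets carry out the attack on beta cells.

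The arrays were those of pancreas: Cela1, an acinar elastase, read 13.16 to 13.35 and Ins2, which encodes insulin, 10.2 to 11.81 on the log2 scale. Array medians lay between 4.24 and 4.30, and within a group the pair of arrays had a Pearson r of 0.9912 to 0.9961 over the probe sets. The middle beta-actin control probe set was high on BDC2.5/NOD.scid replicate 2, NOD.scid replicate 1 and NOD replicate 1, at 9.26 to 9.55, and at 6.95 to 7.74 on the other 5. A kappa light chain probe set annotated to Igkv6-23, picked after its values were seen, differed between the scid groups. It read 4.82 and 4.96 in BDC2.5/NOD.scid, 3.81 and 3.57 in NOD.scid, with 4.13 and 4.23 in BDC2.5/NOD and 6.03 and 5.76 in NOD. The scid group with the transgene thus lay above the scid group without it. The ending of its probe set name marks sequence that several members of a gene family can share, so which segments it read is uncertain. In that comparison 2 of 74 immunoglobulin probe sets were called higher, this one and another annotated to several kappa symbols. Of 18 B cell genes, 0 were called. What this means for the scid label was not tested. Sequences of the probes or segments were not used here.

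Of the 5 receptor segment probe sets, 3 were higher in BDC2.5/NOD.scid pancreas than in each of the other groups, and the 3 that passed were the only members to pass the test in any of the 6 comparisons. The largest difference was in 97945_at, annotated to Trav9d-3, a variable segment of the alpha chain locus. It read 4.51 and 4.54 in BDC2.5/NOD.scid, 3.68 and 3.70 in NOD.scid, with 3.56 and 3.67 in BDC2.5/NOD and 3.73 and 3.65 in NOD. Only the BDC2.5/NOD.scid mean lay above 4.27, the median of all values. Both BDC2.5/NOD.scid arrays lay above the other 6, and the gap to them was wider than the spread among those 6. Against NOD.scid this was a log2 fold change of 0.83 (SE 0.097, 1.78-fold; limma adjusted p = 0.000199), with means of 4.52 ± 0.027 and 3.69 ± 0.020 (SD, n = 2 each).

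A second Trav9d-3 probe set, 97944_f_at, behaved in the same way at a smaller size. It read 7.57 and 7.47 in BDC2.5/NOD.scid, 6.93 and 7.12 in NOD.scid, with 6.87 and 6.86 in BDC2.5/NOD and 6.91 and 7.06 in NOD. The log2 fold change over NOD.scid was 0.49 (SE 0.096, 1.4-fold; limma adjusted p = 0.00803). The ending of its name marks a probe set that several members of a gene family can bind, so which segments it read is uncertain.

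For the beta chain, 93105_s_at, annotated to Trbv1, read 6.13 and 5.84 in BDC2.5/NOD.scid, 5.31 and 5.51 in NOD.scid, with 5.07 and 5.08 in BDC2.5/NOD and 5.29 and 5.39 in NOD. The BDC2.5/NOD.scid arrays were again the highest 2, though they differed from each other by more than in the alpha chain probe sets. The log2 fold change over NOD.scid was 0.58 (SE 0.115, 1.49-fold; limma adjusted p = 0.00875). Its name also marks sequence shared between transcripts. Without NOD.scid replicate 1 the limma adjusted p was 0.0748 for this probe set and 0.0696 for 97944_f_at, and without BDC2.5/NOD.scid replicate 1 it was 0.073 for 93105_s_at, while 97945_at passed under each alternative tried. The alternative that left out dim probe sets kept 97945_at only through its BDC2.5/NOD.scid mean, so it adds no support there. The variable segments of the BDC2.5 receptor itself are known to belong to other families than Trav9d-3 and Trbv1. Which bases these probe sets read, variable or constant, was not tested.

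**Figure D1:**
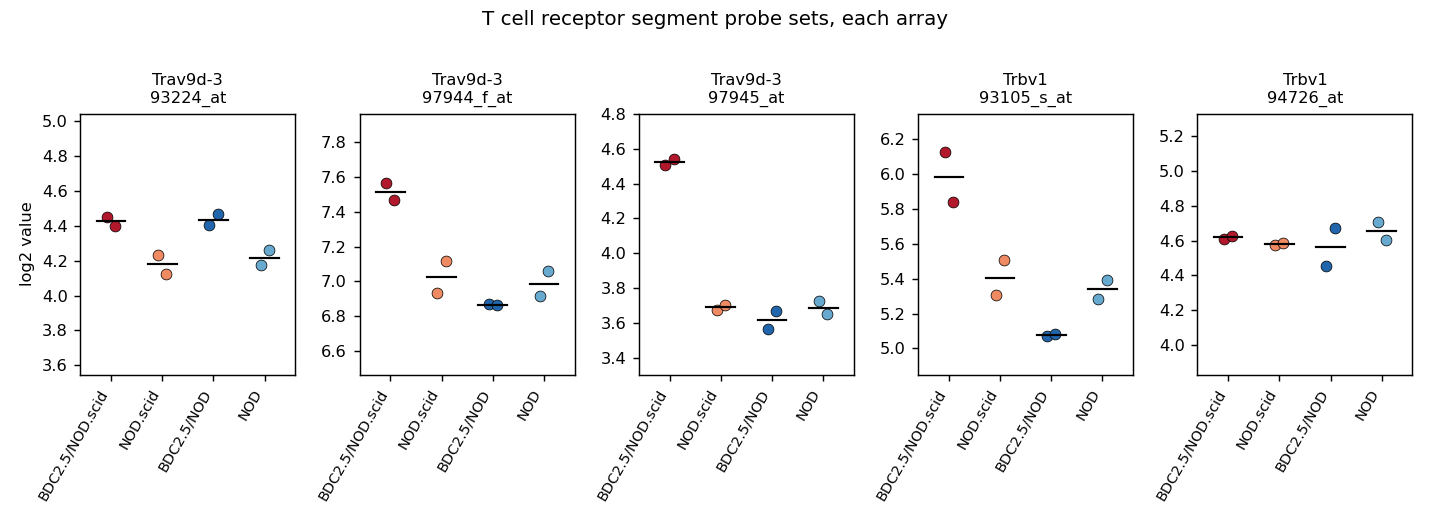
Log2 value (vertical axis) of the 5 probe sets annotated to Trav9d-3 and Trbv1 on each of the 8 arrays, in 4 groups of 2; points are arrays, bars group means, and every panel spans the same height. BDC2.5/NOD.scid stands above the other groups in 97944_f_at, 97945_at and 93105_s_at, and not in 93224_at or 94726_at.

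Other segment probe sets did not share this. The third Trav9d-3 probe set, 93224_at, read 4.45 and 4.40 in BDC2.5/NOD.scid, 4.24 and 4.13 in NOD.scid, with 4.41 and 4.47 in BDC2.5/NOD and 4.18 and 4.26 in NOD. Both transgenic groups lay above both groups without the transgene, by 0.25 in scid and 0.22 in NOD on the log2 scale, and neither difference passed (limma adjusted p = 0.2 and 0.199). The second Trbv1 probe set, 94726_at, stayed within 4.45 to 4.71 on all arrays, with a log2 fold change over NOD.scid of 0.04 (95% interval -0.19 to 0.26). A further 8 probe sets carried symbols of other alpha, beta or gamma chain segments, and 0 of 8 passed in any of the 6 comparisons. Between BDC2.5/NOD.scid and NOD.scid their log2 fold changes ran from -0.17 to 0.07. Nearest to a call was Trav12n-1, at 3.57 and 3.47 in BDC2.5/NOD against 3.07 and 3.25 in NOD, a log2 fold change of 0.36 (limma adjusted p = 0.0501). The summed signal of these 8 probe sets, on the linear scale, was 76.5 to 79.8 in BDC2.5/NOD.scid and 75.5 to 80.8 in NOD.scid. It was 81.7 to 81.8 in BDC2.5/NOD and 72.8 to 77.1 in NOD. Averaged over the 8, that is dimmer than the median of all values, 4.27 on the log2 scale. Whether such dim probe sets could show a rise was not tested. Whether a segment probe set passed thus differed also within a single symbol.

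In all, 3 of the 18 member probe sets were called higher, and 0 lower, with BDC2.5/NOD.scid over NOD.scid, or 16.7%, against 6.4% of all probe sets called in either direction and 2.37% called higher. The members' median log2 fold change was 0.14, against 0.00 over all probe sets (-0.0045). The members were chosen with earlier results of these data known, so an excess over these shares is not a test of the set. Of the 18, 6 had both BDC2.5/NOD.scid arrays above the other 6 arrays, as did 6.93% of all probe sets. These were 97944_f_at, 97945_at, 93105_s_at and probe sets of Cd3e, Cd28 and Zap70. No member had both arrays below the others, against 6.96% of all probe sets. In bulk tissue, more cells of a type and more RNA per cell cannot be told apart.

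The CD3 chain probe sets did not pass in any of the 6 comparisons. Cd3e encodes the epsilon chain, which pairs with both the delta and the gamma chain. It read 5.89 and 5.85 in BDC2.5/NOD.scid, 5.50 and 5.78 in NOD.scid, with 5.81 and 5.80 in BDC2.5/NOD and 5.70 and 5.63 in NOD. The transgenic groups were the higher ones in both backgrounds, with log2 fold changes of 0.23 (95% interval 0.00 to 0.45; limma adjusted p = 0.282) in scid and 0.14 in NOD (limma adjusted p = 0.475). The NOD.scid arrays differed from each other by more than NOD.scid replicate 2 did from BDC2.5/NOD.scid.

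Cd3d, the delta chain, had a pair of probe sets that disagreed. For 92683_at the values were 2.81 and 3.06 in BDC2.5/NOD.scid, 2.54 and 2.59 in NOD.scid, with 2.76 and 2.84 in BDC2.5/NOD and 2.88 and 2.77 in NOD. NOD.scid was the lowest group. Its log2 fold change was 0.37 for BDC2.5/NOD.scid over NOD.scid (95% interval 0.14 to 0.60; limma adjusted p = 0.0662) and -0.26 for NOD.scid against NOD (95% interval -0.49 to -0.03; limma adjusted p = 0.286). Without BDC2.5/NOD.scid replicate 1 the first of these was 0.49 and passed (limma adjusted p = 0.0313), and with the actin control level as a term it was 0.38 and passed (limma adjusted p = 0.0209). The other probe set, 161863_r_at, was chosen under relaxed design rules by its name. It spanned 2.08 to 2.57 over all arrays and had a log2 fold change of -0.10 for BDC2.5/NOD.scid over NOD.scid. Both read near the lowest value of the table, 2.02, and the deposited values carry no detection calls.

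Cd3g, the gamma chain, whose gene lies next to Cd3d in the gene table, overlapped between all groups. It read 3.54 and 3.38 in BDC2.5/NOD.scid, 3.43 and 3.52 in NOD.scid, with 3.47 and 3.54 in BDC2.5/NOD and 3.51 and 3.38 in NOD. The widest gap between its compared group means was 0.06, in BDC2.5/NOD over NOD, and the 95% interval of the log2 fold change over NOD.scid was -0.24 to 0.21. For Cd247, the zeta chain that carries most of the signalling tyrosines, probe set 102287_at read 3.93 and 3.74 in BDC2.5/NOD.scid, 3.79 and 3.77 in NOD.scid, with 3.95 and 3.92 in BDC2.5/NOD and 3.71 and 3.70 in NOD. The transgene went with 0.05 more in scid and 0.23 more in NOD on the log2 scale, and neither passed (limma adjusted p = 0.861 and 0.2). Probe set 102288_at of Cd247 spanned 3.15 to 3.56 over all arrays, and none of its comparisons passed. An interval this wide does not show that the chains were at equal levels. A log2 fold change over NOD.scid as large as that of 97945_at, the largest of the members, lay outside the 95% interval of each CD3 and Cd247 probe set. That holds for array values only. All of these but the Cd3e probe set had every group mean below 4.27, the median of all values, and there were no detection calls. Whether their RNA rose as much was not tested.

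Zap70, the kinase that docks on phosphorylated CD3 and zeta chains, had 3 probe sets, and none passed. Probe set 93662_s_at read 5.82 and 5.90 in BDC2.5/NOD.scid, 5.61 and 5.63 in NOD.scid, with 5.61 and 5.48 in BDC2.5/NOD and 5.72 and 5.71 in NOD. Like the called segment probe sets it was highest in BDC2.5/NOD.scid and lowest in BDC2.5/NOD. Its log2 fold change between those 2 groups was 0.32 (95% interval 0.12 to 0.51; limma adjusted p = 0.054). That value was close to the threshold, and adjusted p was 0.0307 with quantile normalization, 0.0487 with centred array medians, 0.0334 with dim probe sets left out and 0.0389 with array weights. Over NOD.scid the log2 fold change was 0.24 (limma adjusted p = 0.179). The name of 93662_s_at marks sequence shared between transcripts. Probe set 93661_at was at 3.07 and 3.34 in BDC2.5/NOD.scid against 2.92 and 2.93 in NOD.scid, a log2 fold change of 0.28 (limma adjusted p = 0.202). Probe set 93663_r_at, chosen under relaxed design rules by its name, spanned 7.27 to 7.44 and had a log2 fold change of -0.03.

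Among the surface receptors, Cd28 and Icos had differences of opposite sign between BDC2.5/NOD.scid and NOD.scid, and neither passed. Cd28 encodes the costimulatory receptor for CD80 and CD86. It read 3.25 and 3.20 in BDC2.5/NOD.scid, 2.97 and 3.05 in NOD.scid, with 2.90 and 2.91 in BDC2.5/NOD and 2.81 and 3.13 in NOD. BDC2.5/NOD.scid was the highest group, by 0.21 over NOD.scid (limma adjusted p = 0.389) and by 0.32 over BDC2.5/NOD (limma adjusted p = 0.117). With the actin control level as a term, the difference from BDC2.5/NOD was 0.43 and passed (limma adjusted p = 0.0261). Icos, an inducible relative of CD28 encoded close to it with Ctla4 between them, read 2.54 and 2.53 in BDC2.5/NOD.scid, 2.74 and 2.80 in NOD.scid, with 2.80 and 2.89 in BDC2.5/NOD and 2.52 and 2.71 in NOD. The transgene went with a log2 fold change of -0.23 in scid and 0.23 in NOD, and the difference between these effects was -0.46 (SE 0.138; limma adjusted p = 0.0865). Both genes lay low on the scale of the array.

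Cd6, a receptor that binds CD166 and tunes T cell receptor signals, had a probe set, 92204_at, at 5.96 and 6.14 in BDC2.5/NOD.scid, 5.94 and 6.01 in NOD.scid, with 6.18 and 6.12 in BDC2.5/NOD and 5.93 and 5.97 in NOD. BDC2.5/NOD lay above NOD by 0.20 (95% interval -0.01 to 0.40; limma adjusted p = 0.227). Its second probe set, 92203_s_at, spanned 2.95 to 3.29 and overlapped between all groups. Of the 18 member probe sets, 9 had every group mean below 4.27, the median of all values, and among these were all probe sets of Cd3d, Cd3g, Cd247, Cd28 and Icos.

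**Figure D2:**
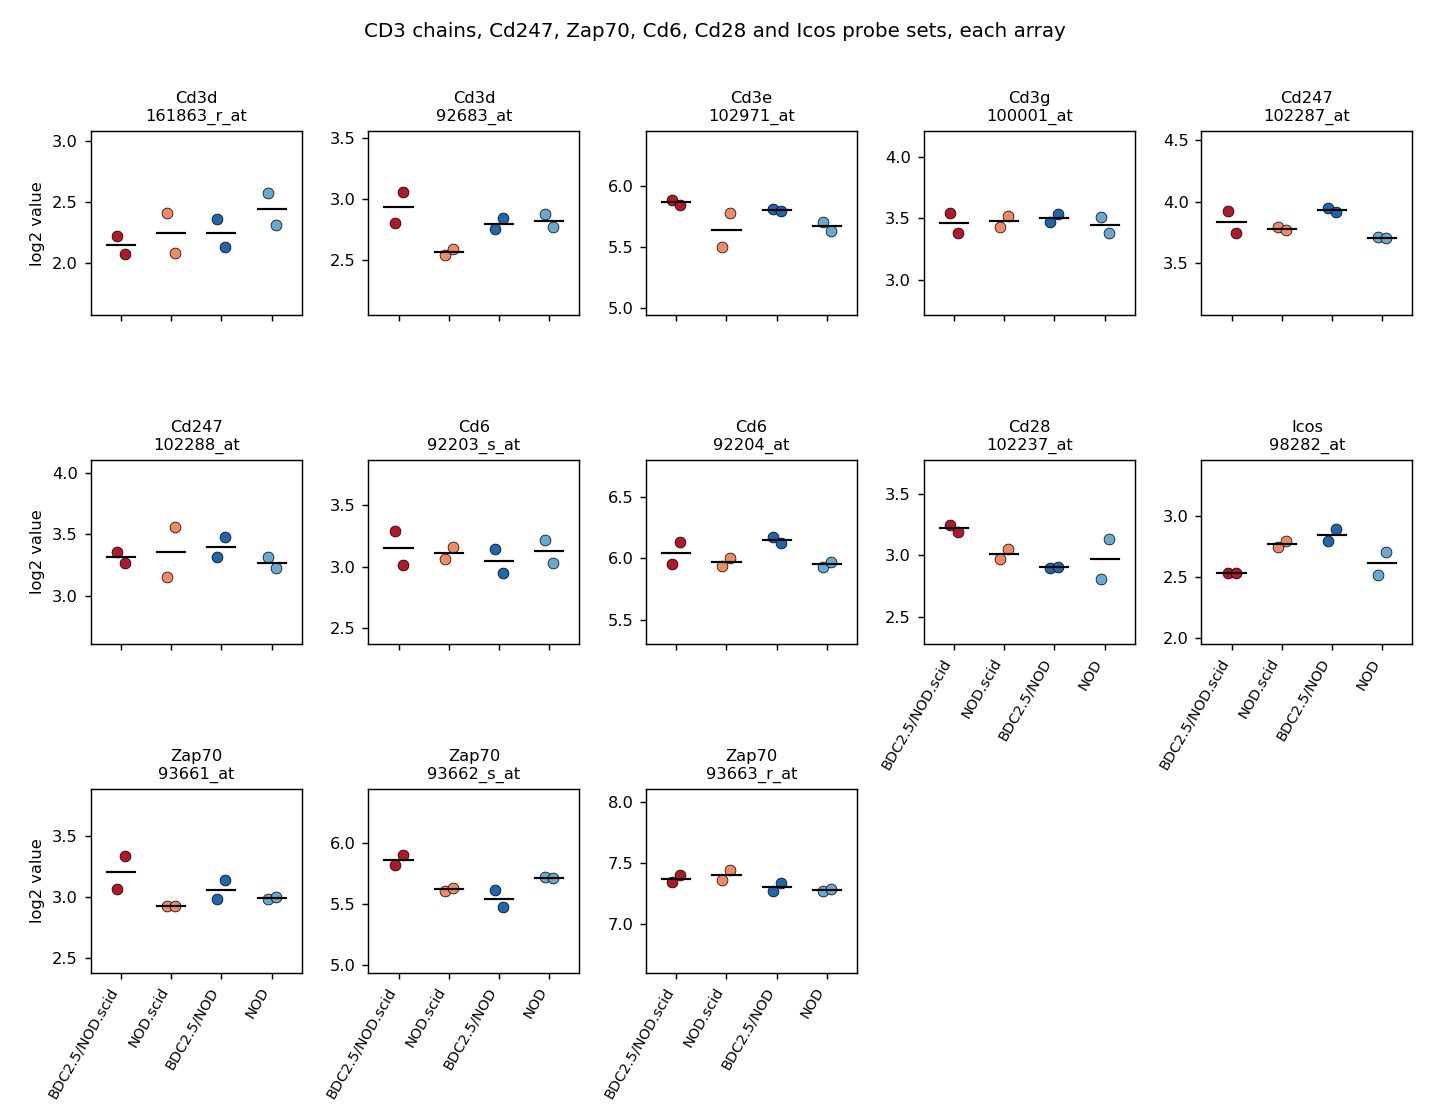
Log2 value (vertical axis) of the 13 probe sets of the CD3 chains, Cd247, Cd6, Cd28, Icos and Zap70 on each of the 8 arrays, in 4 groups of 2; points are arrays, bars group means, and every panel spans the same height. The groups of Cd3g span 3.38 to 3.54, and no panel shows a gap as wide as that of 97945_at.

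The order of the groups was the same in the 3 called segment probe sets: BDC2.5/NOD.scid, then NOD.scid, NOD and BDC2.5/NOD. Only the first step passed the test. NOD.scid and NOD differed by 0.07 or less on the log2 scale in these probe sets (limma adjusted p = 0.844 to 0.994). BDC2.5/NOD lay below NOD by 0.07 in 97945_at, 0.12 in 97944_f_at and 0.26 in 93105_s_at, and none passed (limma adjusted p = 0.719, 0.499 and 0.188). With the actin control level as a term, the last of these had a log2 fold change of -0.42 and did pass (limma adjusted p = 0.017).

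With the transgene in NOD mice, 0 of 18 member probe sets passed in limma, against 7.97% of all probe sets, and 4 of 18 had an unadjusted p under 0.05, against 23.6% of all probe sets. These 4 were Trav9d-3 (93224_at), Cd247 (102287_at) and Icos, each higher in BDC2.5/NOD, and Trbv1 (93105_s_at), lower there. The scid mutation without the transgene also gave 0 of 18 calls in limma, against 2.35% of all probe sets. At an unadjusted p under 0.05 the count was 1, the Cd3d probe set 92683_at, against 14.2% of all probe sets. NOD.scid, labelled with the mutation that removes mature T cells, and NOD were thus not told apart by any member probe set at 3 weeks, with 2 arrays a group.

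The comparison of the scid groups against their counterparts without the scid mutation gave 3 of 18 calls where the transgene was present. BDC2.5/NOD.scid exceeded BDC2.5/NOD by 0.91 in 97945_at (SE 0.097; limma adjusted p = 0.000102), 0.65 in 97944_f_at (limma adjusted p = 0.00116) and 0.91 in 93105_s_at (limma adjusted p = 0.000378). Of all probe sets, 8.35% were called there and 2.99% were called higher. BDC2.5/NOD.scid exceeded NOD by 0.84, 0.53 and 0.64 in the same probe sets (limma adjusted p = 0.000221, 0.00541 and 0.00476), where 7.58% of all probe sets were called and 2.5% were called higher. Without NOD replicate 1, 97944_f_at had a limma adjusted p of 0.0601 against NOD. These comparisons share the BDC2.5/NOD.scid arrays. In all 3 comparisons against other groups, 133 probe sets, or 1.07%, were called higher in BDC2.5/NOD.scid.

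The transgene effect differed between the backgrounds in these probe sets. The interaction, the transgene effect in NOD.scid minus that in NOD, was 0.91 for 97945_at (SE 0.137; limma adjusted p = 0.00247), 0.84 for 93105_s_at (SE 0.162; limma adjusted p = 0.0112) and 0.61 for 97944_f_at (SE 0.135; limma adjusted p = 0.0234). In the table as a whole, 4.72% of probe sets were called for the interaction and 2.22% had a positive one. Without BDC2.5/NOD replicate 1 or 2, 97945_at alone passed. The limma adjusted p was then 0.0702 or 0.0638 for 93105_s_at and 0.118 or 0.114 for 97944_f_at. For 97944_f_at it was also above the threshold without BDC2.5/NOD.scid replicate 1 (0.0634), NOD.scid replicate 1 (0.0694) and NOD replicate 2 (0.089).

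**Figure D3:**
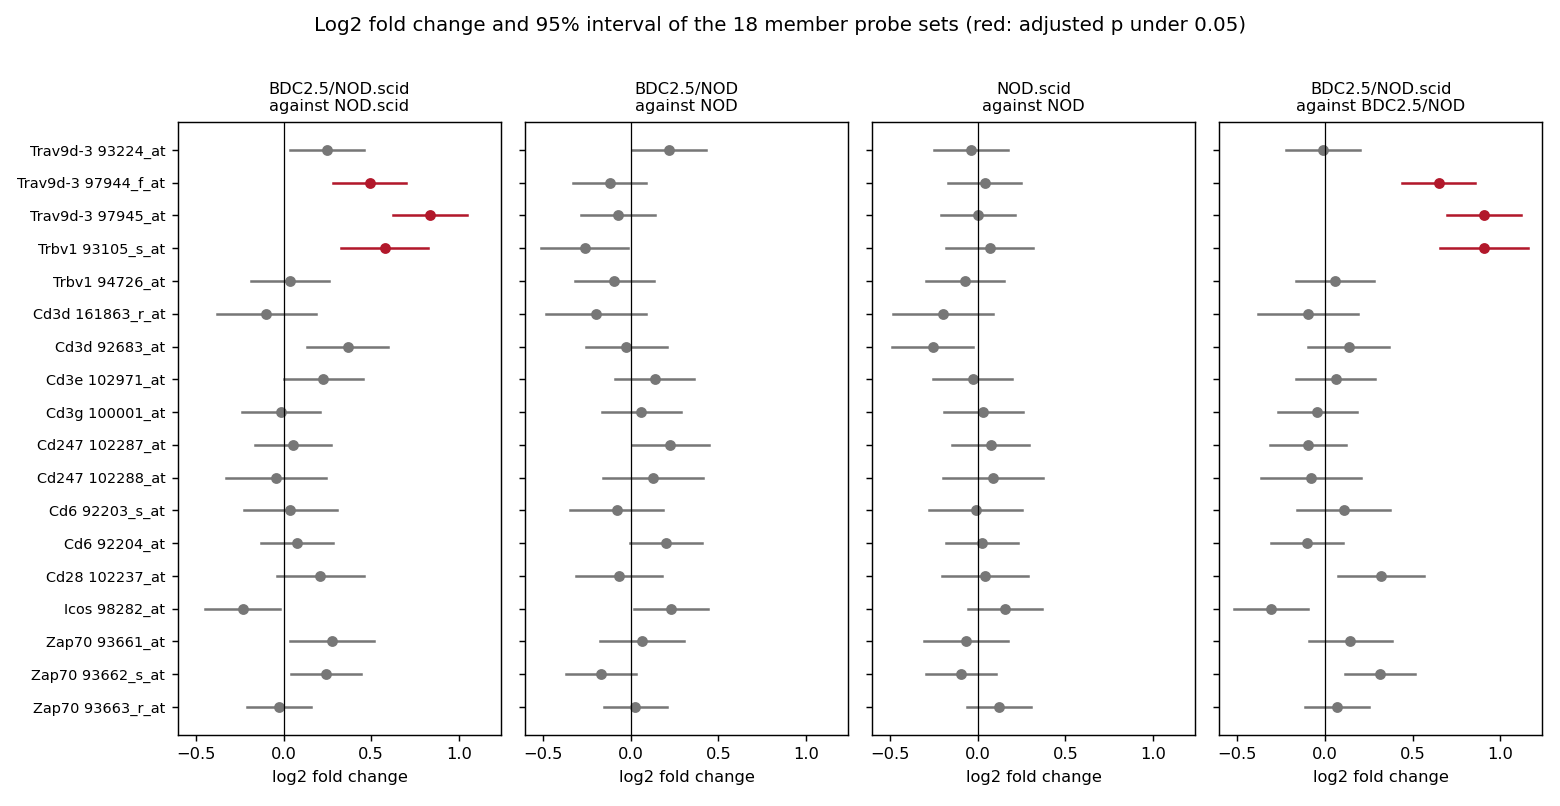
Log2 fold change (horizontal axis; first group over second) with its 95% interval for the 18 member probe sets in 4 comparisons; red marks an adjusted p under 0.05. The 3 red probe sets in the first and last panels are 97944_f_at, 97945_at and 93105_s_at, and the middle panels hold none.

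Of 34 measured genes of a T cell receptor signalling list without the members, 2 rose and 0 fell in BDC2.5/NOD.scid against NOD.scid, beside 2.37% of all probe sets called higher and 6.4% called in either direction, with a median log2 fold change of 0.08 against 0.00 over all probe sets. Ptpn22, a phosphatase that restrains the receptor's kinases, was at 4.6 and 4.52 in BDC2.5/NOD.scid against 4.12 and 3.90 in NOD.scid (log2 fold change 0.55; limma adjusted p = 0.00938). Pik3r1, the regulatory subunit of phosphoinositide 3-kinase found in many cell types, was at 3.84 and 4.02 against 3.41 and 3.10 in NOD.scid (0.67; limma adjusted p = 0.0297). Both are also expressed outside T cells. Neither passed without BDC2.5/NOD.scid replicate 1 (limma adjusted p = 0.0593 for Ptpn22 and 0.0563 for Pik3r1) or NOD.scid replicate 2 (0.0772 and 0.186), and Pik3r1 also missed without BDC2.5/NOD.scid replicate 2 (0.19). Cd4, which the transgenic clone expresses and which was picked after its values were seen, read 6.46 and 6.28 in BDC2.5/NOD.scid against 6.27 and 6.17 in NOD.scid (0.15; limma adjusted p = 0.494). In BDC2.5/NOD against NOD, 1 of the 34 rose, the adaptor Dok1 (0.54; limma adjusted p = 0.0132), beside 7.97% of all probe sets called. Dok1 did not pass without BDC2.5/NOD replicate 1 or 2 (limma adjusted p = 0.114 and 0.104) or NOD replicate 1 (0.122). In NOD.scid against NOD, 0 of 34 passed in limma, beside 2.35% of all probe sets. Vav1 and Grb2, the list's genes of highest value, were at 0.10 and -0.03.

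Of 40 measured genes for T cell surface, lineage and effector proteins, 3 rose and 0 fell in BDC2.5/NOD.scid against NOD.scid (median 0.10). Over all probe sets, 2.37% were called higher there and 6.4% in either direction. Cd53, a tetraspanin of leukocytes, was at 5.21 and 4.73 in BDC2.5/NOD.scid against 3.94 and 3.63 in NOD.scid (log2 fold change 1.19; limma adjusted p = 0.000573). Ccl5, a chemokine of activated T cells and other cells, was at 4.76 and 4.79 against 4.07 and 4.16 in NOD.scid (0.66; limma adjusted p = 0.00182). Gzmb, a cytotoxic granule protease, was at 3.90 and 3.70 against 3.26 and 3.42 in NOD.scid (0.46; limma adjusted p = 0.0242). Gzmb did not pass without BDC2.5/NOD.scid replicate 1 (limma adjusted p = 0.155), NOD.scid replicate 1 (0.146) or BDC2.5/NOD replicate 1 or 2 (0.0529 and 0.0531), nor in a fit of only the groups compared (0.0921). None of the 3 is made by T cells alone. In BDC2.5/NOD against NOD, where 7.97% of all probe sets were called, Cd53 fell by 0.60 and was the only call of the 40. That call was lost without BDC2.5/NOD replicate 1 or 2 (limma adjusted p = 0.281 and 0.116) and NOD replicate 1 or 2 (0.0814 and 0.167). In NOD.scid against NOD, 0 of 40 passed in limma, beside 2.35% of all probe sets.

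Macrophage genes were also higher in BDC2.5/NOD.scid, where 2.37% of all probe sets were called higher than in NOD.scid and 6.4% in either direction. Of 17 measured, 8 rose and 0 fell against NOD.scid (7 to 8 with any 1 array left out), and their summed linear signal was 1045 to 1134 in BDC2.5/NOD.scid against 626 to 662 in NOD.scid. The 4 of smallest p were Ctss (log2 fold change 2.61), Lyz2 (1.95), Cd14 (1.13) and C1qc (1.08). Of the defining macrophage markers, Csf1r read 4.99 and 5 against 4.46 and 4.66 in NOD.scid (limma adjusted p = 0.0418). Adgre1 read 4.88 and 4.84 against 4.51 and 4.56 in NOD.scid (limma adjusted p = 0.17). Of 17 NK cell genes, 2 rose, Gzmb and Tyrobp, an adaptor that macrophages also express (0.43; limma adjusted p = 0.0248). Neither passed without BDC2.5/NOD.scid replicate 1, NOD.scid replicate 1 or either BDC2.5/NOD array, where the count was 0 of 17, and Tyrobp also missed without NOD.scid replicate 2 (limma adjusted p = 0.0911). The summed NK signal was 289 to 292 in BDC2.5/NOD.scid against 266 to 284 in NOD.scid, and Ncr1, the defining NK marker measured, spanned 2.25 to 2.73 over all arrays with no call. NK cells also transcribe some CD3 chain genes, Cd247 and Zap70.

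Of 18 B cell genes, 0 passed in limma in BDC2.5/NOD.scid against NOD.scid, and their summed signal was 541 to 546 against 520 to 566 in NOD.scid. Cd79a read 5.21 and 5.37 against 5.35 and 5.55 in NOD.scid, and Cd79b 3.52 and 3.44 against 3.38 and 3.61. The kappa probe set of Igkv6-23 was nonetheless 1.2 higher on the log2 scale in the same comparison (limma adjusted p = 5.64e-05). Of 12 dendritic cell genes, 8 lymph node genes and 10 exocrine genes, 0 passed in limma in this comparison. Of 13 islet genes, 5 fell, where 500 of all 12422 probe sets were called lower. Of 74 immunoglobulin probe sets, a list added after seeing the data, 2 rose and 0 fell. Over all probe sets, 2.37% were called higher and 6.4% in either direction, so the immunoglobulin share called higher was near that of all. The part of macrophage, NK cell or kappa signal in the segment values was not tested.

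**Figure D4:**
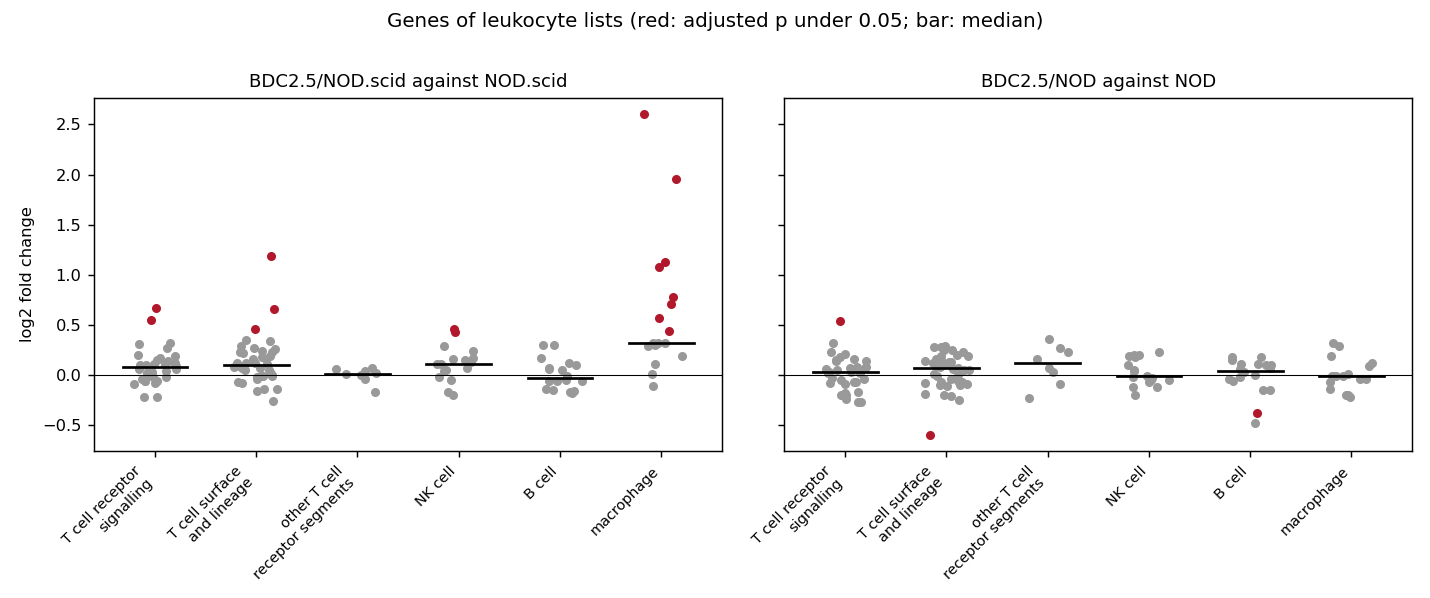
Log2 fold change (vertical axis; first group over second) of every measured gene or probe set in 6 leukocyte lists, for the transgene in NOD.scid (left) and in NOD (right); bars are medians and red marks an adjusted p under 0.05. Of the macrophage genes 8 of 17 were called on the left, and the other T cell receptor segments stayed between -0.17 and 0.07 there.

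Likeness of pattern was measured for 97945_at and 93105_s_at, the Trav9d-3 and Trbv1 probe sets with the widest range of group means. It was the root mean square difference of group means after each gene was centred on its own mean. For 97945_at the nearest 5 single-symbol probe sets were Cxcl9, an interferon gamma induced chemokine that attracts T cells (0.025), Dusp1, a MAP kinase phosphatase (0.033), Srgn, a granule proteoglycan (0.046), Psap, a lysosomal protein precursor (0.066), and Lilr4b, an inhibitory receptor (0.070). Cxcl9 read 3.63 and 4.03 in BDC2.5/NOD.scid against 2.90 and 2.96 in NOD.scid. For 93105_s_at they were Lbp, a plasma protein that binds bacterial lipopolysaccharide (0.023), Laptm5, a lysosomal protein of leukocytes (0.045), Pik3r1 (0.058), Gadd45b (0.061) and Tgif1 (0.067). Lbp read 6.06 and 5.77 in BDC2.5/NOD.scid against 5.32 and 5.36 in NOD.scid. No CD3 chain, Cd247, Zap70 or Cd28 probe set was among either 5. The measure was not scaled for size, so this says nothing of the shape of their patterns. Their group means spanned at most 0.37 (Cd3d 92683_at), against 0.91 in 97945_at and 93105_s_at. None could be near, whatever its order of groups.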

How the data were processed

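Whole-pancreas RNA was measured on 8 Affymetrix arrays, 2 in each of 4 groups, from about 10 ug of total RNA per the labels' protocols. The deposited table held 12488 probe sets with log2 values, a base inferred from their range (2.02 to 13.78). The authors' background correction, normalization and probe summary are not stated in the labels. Values were used as deposited. The 66 control probe sets were left out and 12422 were tested. Platform annotation gave 1 symbol for 10833 probe sets, several for 396 and none for 1193. All 10 members matched the GRCm38.p6 gene table by gene identifier, which was used for names and neighbours only.

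One limma model (version 3.58.1, R 4.3.3) held the means of the 4 groups over the 8 arrays (4 residual degrees of freedom, prior worth 8.07), with a variance trend and two-sided moderated tests. P-values were adjusted by Benjamini-Hochberg over the 12422 probe sets, at a threshold of 0.05. The 6 comparisons were 5 pairs of groups and the interaction. A listed gene was represented by its probe set of highest mean. The fit was checked on simulated arrays with known changes and independent noise. The pass mark of that check covered only log2 changes larger than those called among the members. The number of arrays limits the precision.

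All members were reported. Of each list up to 4 genes past the threshold were picked by smallest p, or the 2 of highest value where none passed. Fixed defining markers were added. Not every picked gene, list and comparison is given in the text. The members and lists were chosen with earlier results of these data known. Alternatives covered scaling, leaving out dim probe sets, the variance prior, array weights and the arrays in the fit. They also covered the replicate number as a block, the threshold, each array left out, and, after seeing the data, the actin control. A rule that took symbols starting with Trad would also have taken Tradd, an adaptor of TNF receptors, which was left out of the segment list.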

Additional observations from a re-analysis of the deposited data

Results flagged for a closer look

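In 3 member probe sets the transgene effect differed between NOD.scid and NOD by the interaction test in limma. The difference was 0.91 on the log2 scale for Trav9d-3 (97945_at), 0.84 for Trbv1 (93105_s_at) and 0.61 for Trav9d-3 (97944_f_at). In each, both BDC2.5/NOD.scid arrays lay above both NOD.scid arrays, while the mean of BDC2.5/NOD lay below that of NOD. The BDC2.5/NOD pair enters each of these tests and agreed more closely within itself than the other pairs (r = 0.9961).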

How the results depend on the processing

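Over all member probe sets, comparisons and alternatives other than crossed replicate numbers there were 1872 recomputed log2 fold changes. Of these, 1847 kept their side of the threshold, 13 lost a call and 12 gained one, and 0 of the 213 called in the standard setting turned sign. Among the 1659 not called in the standard setting, 89 turned sign and stayed uncalled. Trav9d-3 97945_at kept its calls under every alternative tried. The one that left out dim probe sets asked for a group mean above 4.27, the median of all values. This probe set met that only in BDC2.5/NOD.scid (4.52), with means of 3.62 to 3.69 in the other groups, so that alternative adds no support.

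Leaving out 1 array moved the member count to 1 to 3 for BDC2.5/NOD.scid against NOD.scid, 2 to 3 against NOD and 1 to 3 for the interaction. It stayed at 3 against BDC2.5/NOD, and at 0 for BDC2.5/NOD and for NOD.scid against NOD. Without BDC2.5/NOD.scid replicate 1 the count of 3 against NOD.scid held Cd3d in place of Trbv1. Counts over all probe sets then ranged over 445 to 746 for BDC2.5/NOD.scid against NOD.scid (795 with all arrays), 279 to 1139 for BDC2.5/NOD against NOD (990), 71 to 352 for NOD.scid against NOD (292), 329 to 1149 for BDC2.5/NOD.scid against BDC2.5/NOD (1037), 403 to 1064 against NOD (941) and 195 to 491 for the interaction (586). At an adjusted p threshold of 0.01 these 6 counts were 432, 419, 109, 484, 377 and 229, with 1 member for the interaction. Fits of only the groups compared gave 455, 1521 and 143 for the first 3 and 575 for BDC2.5/NOD.scid against NOD, and array weights gave 1568 for BDC2.5/NOD against NOD.

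With the actin control level as a term, an alternative chosen after seeing the data, counts were 1321 for BDC2.5/NOD.scid against NOD.scid, 781 for NOD.scid against NOD, 1684 for BDC2.5/NOD.scid against NOD and 994 for the interaction, and 1 member, Trbv1, passed for BDC2.5/NOD against NOD. Without the 3 arrays of high actin control, also chosen after seeing the data, the 6 counts were 1418, 2179, 1489, 2138, 1441 and 1621. Trbv1 was again the 1 member called for BDC2.5/NOD against NOD (-0.32), and 6 members were called against BDC2.5/NOD, with Cd28 (0.35), Zap70 93662_s_at (0.28) and Icos (-0.31) added. That fit takes its spread from the BDC2.5/NOD pair alone. The cause of these changes was not tested.

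The titles number a single array of each group and state no pairing, so the replicate numbers are an order taken here. In that order, the deviations within pairs correlated between groups at -0.32 to 0.29. With the replicate block the 6 counts were 647, 762, 195, 826, 658 and 411, member counts stayed at 3, 0, 0, 3, 3 and 3, and Cd53 missed in BDC2.5/NOD against NOD (adjusted p = 0.0554). Crossed numbers as a block, in fits of only the groups compared, gave 778 for BDC2.5/NOD.scid against NOD.scid and 1972 against NOD, where the same fits without a block gave 455 and 575. Member calls were then 3 and 4, the added one being Cd3d 161863_r_at, which was below NOD. No detection calls were used, so how far the dim members lay above background is unknown.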
